A study of Danio rerio with 6 samples.

Results

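The genes described here encode the factors that start transcription of small nuclear RNA (snRNA) genes. They are the subunits of SNAPc, the snRNA activating protein complex (*snapc1a*, *snapc1b*, *snapc2*, *snapc3*, *snapc4* and *snapc5*), the TFIIIB subunits *brf2* and *bdp1*, and the activator *znf143b*. These 9 symbols were looked up among the 34965 genes of the expression table, ignoring case. Of them, 7 had a row of the same name. The row named SNAPC1 (ENSDARG00000029569) was taken as *snapc1a*, because *snapc1b* has a row of its own. The reference names give ZNF143 to both ENSDARG00000012887 and ENSDARG00000041581 without telling *znf143a* from *znf143b*, so both rows are given, here called ZNF143 row 1 and row 2, and 10 rows are described. The set was chosen by role and by mutant-over-sibling differences already known from these same libraries. The differences of its genes between mutants and siblings, and the counts of them, are therefore descriptions, and no p value is given for them.

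The libraries were made from zebrafish heads of the AB strain at 36 hours post-fertilization, 3 from *prpf31*-/- embryos (mutants) and 3 from siblings labelled wild type. The mutants come from a single knockout line made with CRISPR/Cas9. Each library is a pool of 35 heads of one genotype, sorted by genotyping the tails, so that differences between single embryos are not seen. Polyadenylated RNA was sequenced, and the deposited values are read counts per gene and FPKM, which is the count divided by the gene's length and the library total.

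In vertebrates, SNAPc binds the proximal sequence element in the promoters of snRNA genes. It serves both RNA polymerase II, which transcribes U1, U2, U4 and U5 snRNA, and RNA polymerase III, which transcribes U6 snRNA. At the polymerase III type of promoter a TATA box next to the proximal element recruits TFIIIB, made there of the TATA-binding protein, Bdp1 and Brf2, while tRNA and 5S rRNA genes use Brf1 in place of Brf2. Of these snRNAs, U4, U5 and U6 are the RNA part of the tri-snRNP, the particle that Prpf31 helps to assemble.

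The libraries held 58706617 to 66381302 counts each. Counts were scaled by TMM, given as CPM (counts relative to the scaled library total), and fitted over 24277 genes with edgeR's quasi-likelihood test, in which a gene was called at an adjusted p of 0.05 or lower. The knocked out gene *prpf31* was at 22.4, 24.5 and 27.3 CPM in mutants, against 38.7, 37.9 and 37.6 CPM in siblings (log2 fold change −0.62, standard error 0.11). Its edgeR adjusted p was 0.018 (0.0629 without mutant 2 and 0.0776 to 0.0898 without any one sibling library). Mutant 1 stood apart from the other libraries, with a TMM factor of 0.816, against 1.02 to 1.06 in the other 5. Its summed level of 11 head marker genes was 122 CPM, against 274 to 340 CPM in the other libraries, while its summed muscle markers reached 72398 CPM, against 27988 to 34041 CPM. Trunk and tail Hox genes were present in every library, at summed levels of 283 CPM in mutant 1 and 98.6 to 151 CPM elsewhere, and 4 blood cell markers summed to 226, 467 and 315 CPM in mutants, against 408, 653 and 673 CPM in siblings. None of these markers was called and none was at 0 in any library. With the replicate number as a block, *rx2* and EN2 row ENSDARG00000038868 among the head markers (edgeR adjusted p = 0.0307 and 0.041) and *hbae3* and *alas2* among the blood cell markers (edgeR adjusted p = 0.0198 and 0.017) were called lower in mutants. The head markers did not all go the same way. In the main fit, *rx1* had a log2 fold change of 0.44, and both PAX6 rows and SIX3 row ENSDARG00000054879 lay between 0.010 and 0.057. The other head marker rows were negative in that fit. With the block, *rx1* was at 0.16 and the other head marker rows were negative. The heads held Hox transcripts of the posterior body and muscle transcripts in both groups. The part of these markers in the results was not tested, and values without mutant 1 are given where they matter. In such bulk samples, a change in the number of cells of a type and a change in RNA per cell cannot be told apart.

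*Snapc4* and *brf2* were about 10 times higher in mutants, while the other SNAPc subunits stayed within a factor of 1.5 of the sibling level, apart from the barely detected *snapc1a*. Of the 10 rows, 2 were called higher, *snapc4* and *brf2*, beside 3.96% of all genes tested, and 2 were called lower, *snapc5* and ZNF143 row 1, beside 3.83% of all genes tested. In CPM, the 3 mutant libraries were above the 3 sibling libraries in 3 rows, beside 14.9% of all genes, and below them in 3 rows, beside 17.4% of all genes. The median log2 fold change over the rows was 0.0020, beside 0.019 over all genes. All 10 rows passed the filter on low counts. The plot of levels per length shows *snapc4* and *brf2* as the only rows with a wide gap between the groups.

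**Figure D1:**
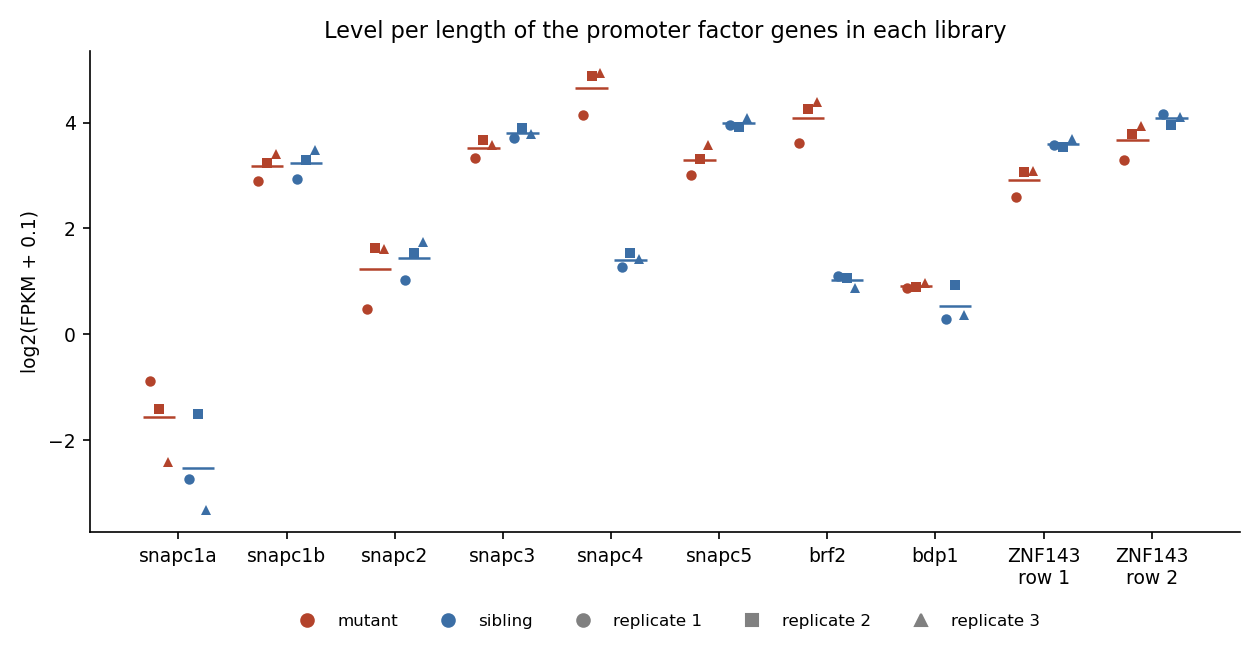
Level of each row in each library as log2(FPKM + 0.1), mutants left of siblings, with symbols for the replicate number and a horizontal line at the mean of 3 libraries. *Snapc4* averaged 25.9 FPKM in mutants and 2.56 FPKM in siblings, *brf2* averaged 17.3 FPKM in mutants and 1.93 FPKM in siblings, and the groups of the remaining rows lie close together or overlap.

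Snapc4 is the largest subunit of the complex and carries the Myb-type repeats that contact DNA. *Snapc4* (ENSDARG00000067673) had 6454, 10855 and 11227 counts in mutants 1, 2 and 3, against 760, 958 and 945 counts in siblings 1, 2 and 3. After scaling this was 120, 160 and 164 CPM in mutants and 12.7, 14.6 and 13.5 CPM in siblings. The lowest mutant library was thus far above the highest sibling library, and mutant 1 was the lowest of the mutants. The log2 fold change came to 3.44 at a standard error of 0.16, or 10.9-fold, at position 107 when the 24277 genes tested were ordered from the highest log2 fold change down. Between libraries of the same replicate number the log2 ratios were 3.24, 3.45 and 3.61. Without mutant 1, the library with low head and high muscle markers, the log2 fold change was 3.57.

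The core of the complex that binds DNA is formed in humans by Snapc4 with Snapc1 and Snapc3. *Snapc3* (ENSDARG00000101474) was at 10.7, 10.8 and 9.86 CPM in mutants, against 11.2, 12.1 and 11.2 CPM in siblings. The mutants were all below the siblings, but by a small margin. Its log2 fold change was −0.14, at a standard error of 0.12, and it was not called. *Snapc1b* (ENSDARG00000003827) was at 8.66, 8.76 and 9.70 CPM in mutants, against 7.17, 8.84 and 10.1 CPM in siblings, and the groups overlapped (log2 fold change 0.055, standard error 0.16). Its paralog *snapc1a* was close to the detection limit, with 30, 19 and 6 counts in mutants and 3, 16 and 0 counts in siblings. The groups of *snapc1a* overlapped, its fitted log2 fold change of 1.62 had a standard error of 1.095, and the value was 0.88 without mutant 1, 1.03 without sibling 3 and 3.58 without sibling 2. Per length, *snapc1a* stood at 0.0327 ± 0.0259 of *snapc1b* in mutants and at 0.0107 ± 0.0134 of it in siblings (SD, n = 3 each), so that nearly all *snapc1* transcripts in both groups were of *snapc1b*.

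Snapc2 and Snapc5 lie outside the minimal human complex that supports snRNA transcription in vitro. *Snapc5* (ENSDARG00000062476) was at 8.14, 7.95 and 9.48 CPM in mutants, against 12.6, 11.8 and 13.1 CPM in siblings. Every mutant library was below every sibling library. The difference was −0.55 ± 0.13 on the log2 scale (± standard error), or 0.683 of the sibling level. The call was lost when mutant 2, mutant 3 or any one sibling library was left out, while the log2 fold change stayed between −0.63 and −0.50. The *snapc5* call was also lost with library sizes alone in place of TMM, with limma on FPKM values, or without the filter on low counts. *Snapc2* (ENSDARG00000036473) was at 2.90, 5.38 and 5.16 CPM in mutants, against 3.50, 4.86 and 5.60 CPM in siblings. In both groups replicate 1 was the lowest library, the groups overlapped, and the log2 fold change was −0.051 (standard error 0.28), or 0.17 without mutant 1 and 0.10 without sibling 3.

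Since FPKM values are per length, the transcripts of the subunit genes can be set beside each other within a library. Amounts of protein and the splicing of these transcripts were not examined here. In mutants, *snapc4* made up 39.4%, 45.6% and 45.2% of the summed FPKM of the 6 SNAPc genes, against 5.76%, 6.13% and 5.42% in siblings. *Snapc4* thus had a smaller share than *snapc3*, *snapc5* and *snapc1b* in every sibling library, and the largest share in every mutant library. The share of *snapc5* was 16.9 ± 1.46% in mutants and 35.6 ± 2.53% in siblings (SD, n = 3 each). Shares within a library depend on each other, so a larger *snapc4* share leaves less for the rest. Those of *snapc3* (19.8 ± 2.53% in mutants and 31.2 ± 2.09% in siblings), *snapc1b* and *snapc2* were also lower in mutants without overlap. That of *snapc1a* overlapped. The ratio of *snapc4* to *snapc3*, its partner in the core, was 1.76, 2.33 and 2.60 in mutants, against 0.178, 0.188 and 0.188 in siblings. The summed FPKM of the other 5 subunits was 33.1 ± 5.33 in mutants and 41.8 ± 3.54 in siblings (SD, n = 3 each). Mutant 1 was the lowest mutant in this sum too, at 27.0 FPKM. FPKM was scaled by the authors to the total count of a library and not by TMM, so that the levels of mutant 1 read low on this scale, but ratios within a library do not depend on the scaling.

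**Figure D2:**
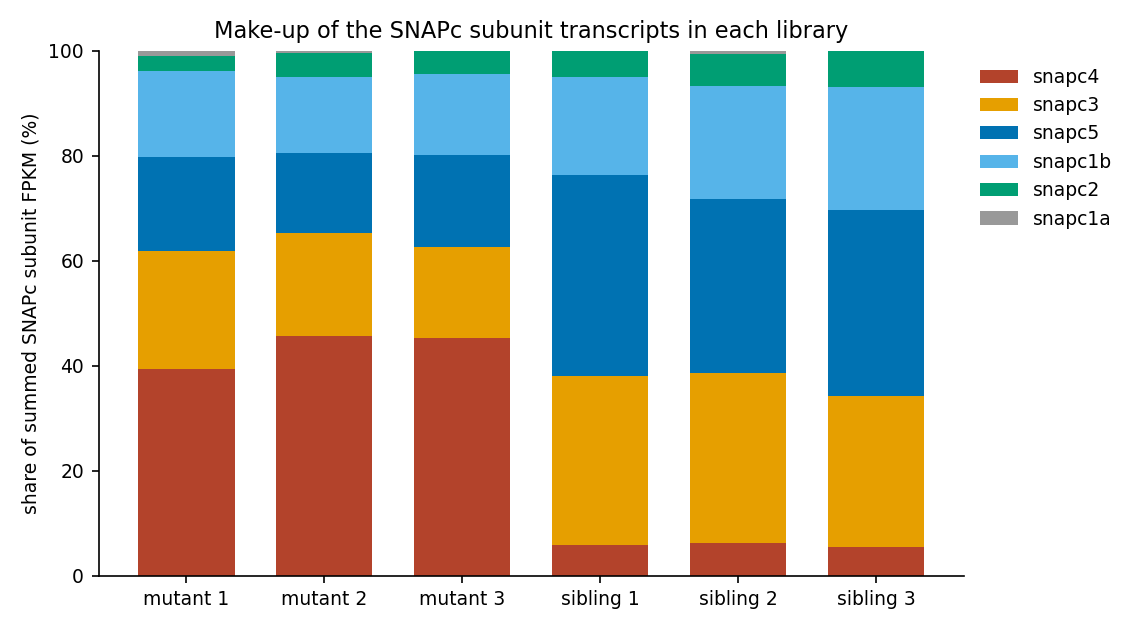
Share of each SNAPc subunit gene in the summed FPKM of the 6 subunit genes, in percent, for each library, mutants left of siblings. The *snapc4* share is 39.4% to 45.6% in the mutant libraries and 5.42% to 6.13% in the sibling libraries.

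Brf2 is a relative of the general factor TFIIB and takes part in TFIIIB at U6-type promoters. *Brf2* (ENSDARG00000002060) had 1546, 2411 and 2620 counts in mutants, against 231, 236 and 220 counts in siblings. After scaling this was 28.8, 35.6 and 38.3 CPM in mutants and 3.87, 3.60 and 3.14 CPM in siblings. As for *snapc4*, every mutant was far above every sibling and mutant 1 was the lowest mutant. The difference was 3.27 ± 0.16 on the log2 scale (± standard error), or 9.68-fold, at position 123 of the 24277 genes, and 3.38 without mutant 1. The ratio of *snapc4* to *brf2* in FPKM was 1.49 ± 0.0574 in mutants and 1.34 ± 0.181 in siblings (SD, n = 3 each), and the groups overlapped in this ratio.

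Bdp1 is a TFIIIB subunit common to all polymerase III promoters. *Bdp1* (ENSDARG00000102375) was at 3.71, 2.99 and 3.12 CPM in mutants, against 1.93, 2.98 and 1.94 CPM in siblings. Sibling 2 reached the mutant level to within 0.02 CPM, so that the groups did not overlap only by the smallest of margins. As FPKM, which is not scaled by TMM, the groups overlapped, with sibling 2 at 1.81 and mutants 1 and 2 at 1.73 and 1.75. The log2 fold change of 0.52 (standard error 0.24) was not called. The ratio of *brf2* to *bdp1* in FPKM was 9.68 ± 2.28 in mutants and 1.47 ± 0.363 in siblings (SD, n = 3 each), without overlap. Brf1, which takes the place of Brf2 at tRNA and 5S promoters, is encoded by *brf1a* and by the row named BRF1 (ENSDARG00000005002). *Brf2* stood at 2.51 ± 0.325 times the summed FPKM of both in mutants and at 0.228 ± 0.0326 times in siblings (SD, n = 3 each).

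Znf143 binds the distal element upstream of snRNA promoters. ZNF143 row 1 was at 14.7, 16.4 and 16.3 CPM in mutants, against 23.6, 22.0 and 24.3 CPM in siblings, without overlap, and its log2 fold change of −0.56 (standard error 0.11) was called. As for *snapc5*, the call was lost without mutant 2, mutant 3 or any one sibling library, with log2 fold changes of −0.605 to −0.532. It was also lost with library sizes alone or with limma on FPKM values, but was kept without the filter on low counts. ZNF143 row 2 was at 30.4, 34.1 and 37.3 CPM in mutants, against 44.7, 36.8 and 41.1 CPM in siblings. Mutant 3 was above sibling 2, and the log2 fold change of −0.27 (standard error 0.13) was not called.

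As FPKM, the order of the levels also differed between the groups. In mutants the highest were *snapc4* (25.9 ± 7.21 FPKM), *brf2* (17.3 ± 4.51), ZNF143 row 2 (12.9 ± 2.85), *snapc3* (11.5 ± 1.34), *snapc5* (9.89 ± 1.96), *snapc1b* (9.04 ± 1.60) and ZNF143 row 1 (7.50 ± 1.38, SD, n = 3 each). The SD ranges of neighbours in this order overlapped, but they hold differences between libraries, with mutant 1 low on this scale. Within every mutant library *snapc4* was above *brf2*, and *brf2* above ZNF143 row 2. *Snapc5* was likewise above *snapc1b*, and *snapc1b* above ZNF143 row 1. ZNF143 row 2 and *snapc3* changed places between mutant libraries, as did *snapc3* and *snapc5*. *Snapc2* (2.41 ± 0.968), *bdp1* (1.78 ± 0.0693) and *snapc1a* (0.268 ± 0.176) followed in mutants with a gap after ZNF143 row 1, and of these *snapc2* and *bdp1* overlapped. In siblings the order began with ZNF143 row 2 (16.8 ± 1.31 FPKM), *snapc5* (15.8 ± 0.935), *snapc3* (13.8 ± 0.902), ZNF143 row 1 (12.02 ± 0.643) and *snapc1b* (9.49 ± 1.80). *Snapc2* (2.67 ± 0.666), *snapc4* (2.56 ± 0.233), *brf2* (1.93 ± 0.164), *bdp1* (1.37 ± 0.382) and *snapc1a* (0.10 ± 0.133) came last in siblings. In siblings, the SD ranges of neighbours overlapped between ZNF143 row 2 and *snapc5* and between *snapc2* and *snapc4*, and not between the other neighbours. Neighbours kept this order within every sibling library, apart from *snapc2* and *snapc4*, which changed places in sibling 1.

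Other genes that act with these factors were followed in 9 lists written by role with earlier results of these libraries known, which held 52 rows outside the set, 49 of them tested. They covered the other TFIIIB genes, activators of the distal element, polymerase III, its shared subunits and its repressor, TFIIIC and TFIIIA, general factors of polymerase II, the little elongation complex, and the La and 7SK proteins. Of the 49, 8 were called higher and 4 lower in mutants by edgeR's quasi-likelihood test over all genes, of which 3.96% were called higher and 3.83% lower. Since the lists were made with these results known, the counts and adjusted p values of their genes describe these libraries and are no independent evidence about the lists. The median log2 fold change of the 49 was 0.18, with 31 above 0. Over all genes tested the median was 0.019, with 12555 of 24277 above 0. The lowest list median was −0.45, for the La and 7SK proteins. The highest was 0.53, for the 3 tested TFIIIB and TATA-binding protein genes outside the set, which leave out *brf2* and *bdp1*.

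**Figure D3:**
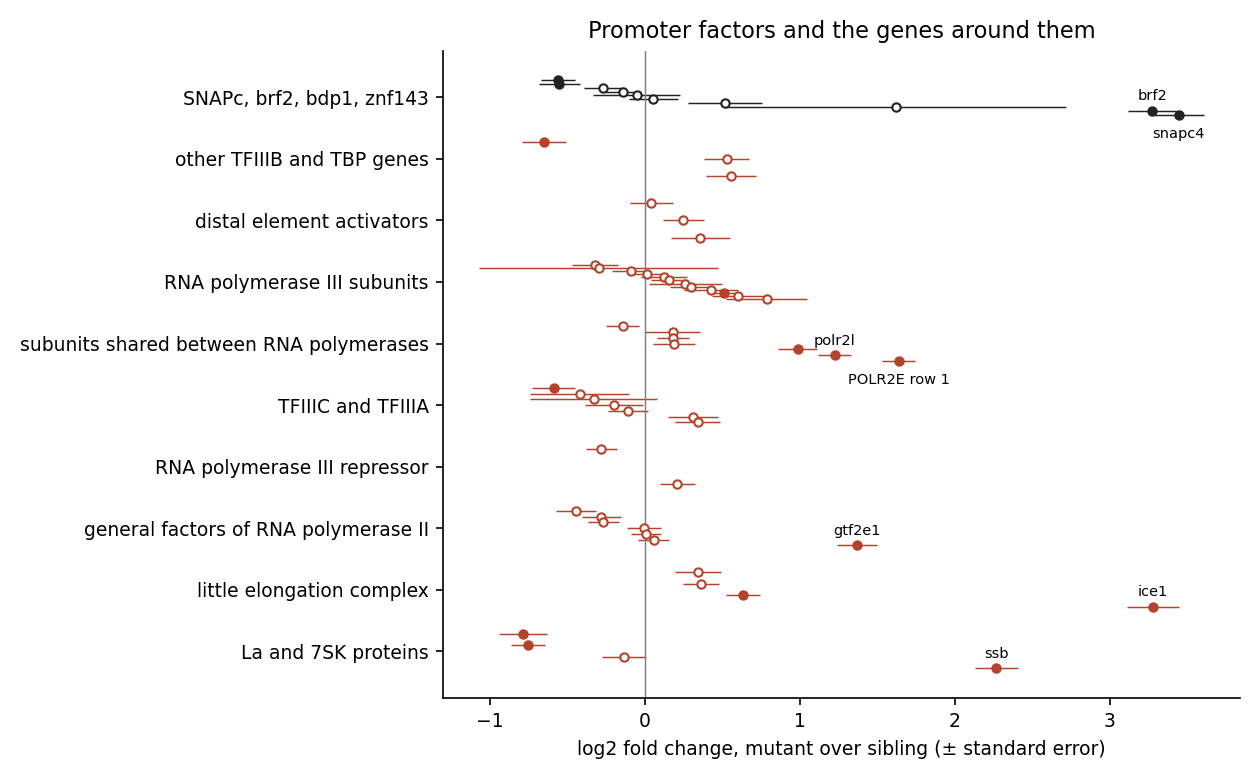
Log2 fold change of mutants over siblings with its standard error for the 10 promoter factor rows (black) and the 49 other genes tested (red), by list. Filled points were called. *Snapc4*, *brf2*, *ice1* and *ssb* lie apart on the right, at 3.44, 3.27, 3.28 and 2.27.

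The largest difference was in *ice1* (ENSDARG00000058461), which encodes the scaffold of the little elongation complex, a complex that acts in transcription of snRNA genes by polymerase II. *Ice1* was at 132, 153 and 172 CPM in mutants, against 18.1, 13.2 and 15.9 CPM in siblings. The log2 fold change, 3.28 with a standard error of 0.17, was close to those of *snapc4* and *brf2* (edgeR adjusted p = 0.00018), and mutant 1 was again the lowest mutant. The other genes in the list of the little elongation complex differed less. *Ell*, which encodes an elongation factor, was higher by 0.63 ± 0.11 on the log2 scale (± standard error, edgeR adjusted p = 0.0172). The call on *ell* was lost without mutant 3 or any one sibling library, with library sizes alone in place of TMM, or with limma on FPKM values. *Ell2* and *ice2* had log2 fold changes of 0.36 and 0.34 and were not called.

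*Ssb* encodes the La protein, which binds the ends of new polymerase III transcripts, U6 among them. It was at 339, 425 and 434 CPM in mutants, against 79.6, 82.5 and 86.6 CPM in siblings. The groups lay far apart, at 2.27 ± 0.14 on the log2 scale (± standard error, edgeR adjusted p = 0.000249). In the same list, both rows named MEPCE, for the enzyme that caps 7SK RNA, were lower in mutants. ENSDARG00000035771 was at 31.6 ± 5.35 CPM in mutants and 54.4 ± 6.40 CPM in siblings (SD, n = 3 each, edgeR adjusted p = 0.0254), and ENSDARG00000059461 was at 13.1 ± 1.04 CPM in mutants and 22.2 ± 0.399 CPM in siblings (SD, n = 3 each, edgeR adjusted p = 0.00953). The call on ENSDARG00000035771 was lost without mutant 2, mutant 3 or any one sibling library, and that on ENSDARG00000059461 without sibling 2 or sibling 3.

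Among 12 genes of polymerase III, only *polr3e* was called, at 63.1 ± 4.19 CPM in mutants and 44.3 ± 0.710 CPM in siblings (SD, n = 3 each, log2 fold change 0.51, edgeR adjusted p = 0.0269). That call was lost without any one library other than mutant 1, with library sizes alone in place of TMM, or with limma on FPKM values. With the replicate number as a block, *polr3f* was called too (edgeR adjusted p = 0.0305, against 0.0732 without the block). Subunits shared between the polymerases were called in 3 of 7 tested rows, all higher. They were POLR2E row ENSDARG00000026183 (log2 fold change 1.64, edgeR adjusted p = 0.000337), *polr2l* (1.23, adjusted p = 0.0012) and *polr2k* (0.98, adjusted p = 0.00645). The level of POLR2E was 137, 142 and 129 CPM in mutants, against 41.3, 45.5 and 44.3 CPM in siblings, and mutant 1 was not the lowest mutant.

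In TFIIIB, the BRF1 row was lower in mutants, at 10.3 ± 1.36 CPM, against 16.1 ± 1.22 CPM in siblings (SD, n = 3 each, log2 fold change −0.65, edgeR adjusted p = 0.0345). The call on BRF1 was lost without any one library other than mutant 1, with library sizes alone in place of TMM, or with limma on FPKM values. The paralog of BRF1, *brf1a*, had a log2 fold change of 0.56 and was not called (edgeR adjusted p = 0.079). *Tbp*, the TATA-binding protein gene, named here for its place in TFIIIB after its values were seen, was at 26.7, 36.5 and 37.2 CPM in mutants, against 23.2, 23.5 and 22.9 CPM in siblings. It was not called (log2 fold change 0.53, edgeR adjusted p = 0.0705), but was with the replicate block (adjusted p = 0.0478). TFIIIC and TFIIIA had 1 call in 7 rows, *gtf3c4*, which was lower (log2 fold change −0.59, edgeR adjusted p = 0.0458). The call on *gtf3c4* was lost without any one library other than mutant 1, with RLE in place of TMM factors, or without the filter on low counts. Among 7 tested general factors of polymerase II, *gtf2e1*, a TFIIE subunit, was higher (log2 fold change 1.37, edgeR adjusted p = 0.00163), and its partner *gtf2e2* had a log2 fold change of 0.0090. *Gtf2a1* was called with the block (edgeR adjusted p = 0.0398, against 0.0837 without it), at a log2 fold change of −0.45. Neither the 3 activators of the distal element nor the 2 rows of the polymerase III repressor Maf1 were called.

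The products of these promoters were looked for in rows named as snRNA genes. Poly(A) selection does not select these RNAs and the genes are near-identical copies, so the counts are what the libraries hold and not snRNA levels. All U1, U2, U4, U5 and U6 rows and those of the minor spliceosome together held few counts. The 182 U1 rows had 77, 87 and 101 counts in mutants, against 77, 43 and 36 counts in siblings, and the 303 U6 rows had 19, 24 and 30 counts in mutants, against 5, 14 and 24 counts in siblings. Scaled, U6 was at 0.354, 0.354 and 0.439 CPM in mutants, against 0.0837, 0.214 and 0.343 CPM in siblings, without overlap, and the log2 difference of 1.01 was 0.48 without sibling 1. U4 went the other way, with 1, 4 and 4 counts in mutants and 5, 8 and 14 counts in siblings. The 6 classes with at least 10 counts in all had adjusted p of 0.15 to 0.2 (2-sided exact permutation tests, unadjusted p = 0.1 to 0.2). The minor spliceosome rows had 0, 8 and 4 counts in mutants and 0 counts in each sibling library. Their exact permutation p of 0.1 ranks mutant 1 above the siblings only through the 0.5 counts added and its smaller scaled library total. Without use of pairing, 0.1 is the smallest p that 3 against 3 libraries allow, so no class could reach 0.05. The class of 7SK, RNase MRP, RNase P and Y RNA rows, also made by polymerase III, was at 1.55 ± 0.321 CPM in mutants and 1.09 ± 0.0521 CPM in siblings (SD, n = 3 each, exact permutation p = 0.1, adjusted p = 0.15).

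*Snapc4* and *brf2* were also compared with their neighbours in the genome, since the counting is not stated to have used the strand. Reads of overlapping genes could then be lost or be counted for the other gene. The order of genes was taken from the RefSeq annotation of GRCz12tu, a later assembly than the GRCz11 of the counts. There *card9*, which encodes an adaptor of innate immune signalling, overlaps *snapc4*. *Card9* had 503, 291 and 885 counts in mutants, against 115, 33 and 209 counts in siblings, a log2 fold change of 2.29 (standard error 0.62) that was not called (edgeR adjusted p = 0.0676) but was with the replicate block (adjusted p = 0.00149) and with DESeq2 (adjusted p = 0.000761). Whether reads of *snapc4* were counted in *card9* was not tested. On the other side of *snapc4*, *entr1* had a log2 fold change of 0.58 and was called only with the block (edgeR adjusted p = 0.0499, against 0.118 without it), and the other 5 matched neighbours, *zgc:194398*, *pomt1*, *ccdc180*, *ubac1* and *msh3*, lay between −0.30 and 0.62 and were not called. Of 4 tested neighbours of *brf2*, *ess2*, which encodes a protein found in spliceosomes, was higher, at 57.9, 67.5 and 62.0 CPM in mutants and 18.2, 16.9 and 17.9 CPM in siblings (log2 fold change 1.82, standard error 0.11, edgeR adjusted p = 0.000241). The gene between them, *rab11fip1b*, was not called, at 8.56, 5.85 and 5.82 CPM in mutants and 6.23, 5.77 and 5.68 CPM in siblings.

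**Figure D4:**
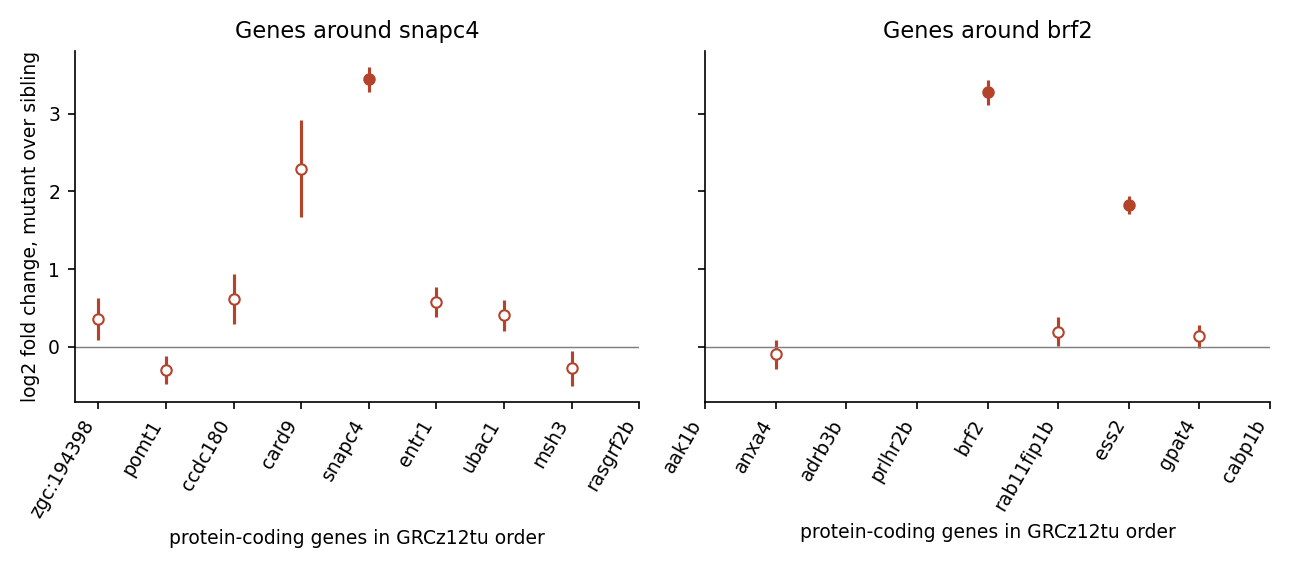
Log2 fold change of mutants over siblings with its standard error for the protein-coding genes around *snapc4* (left) and *brf2* (right), in the order of the GRCz12tu annotation and not to scale. Filled points were called, and names without a point were not matched to a row or not tested. *Card9* next to *snapc4* stands at 2.29 with a standard error of 0.62, and *ess2* near *brf2* at 1.82.

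The genes whose pattern over the 6 libraries was most like that of *snapc4* were found by the distance between log2(CPM + 0.5) values centred on each gene's mean, among 20848 other named genes. METTL16, which encodes the enzyme that methylates U6 snRNA, was the closest, at a distance of 0.215, where the median of all genes was 4.19. It was at 61.7, 77.2 and 81.7 CPM in mutants, against 5.19, 6.32 and 6.01 CPM in siblings, with mutant 1 and sibling 1 the lowest of their groups as in *snapc4*. *Si:rp71-1d10.6* (0.391) and *brf2* (0.444) came next. *Si:rp71-1d10.6* was at 0.636, 0.412 and 0.557 CPM in siblings, near the 0.5 added before logs were taken. Its log2 fold change was 4.197, against 3.444 for *snapc4*, and the added 0.5 narrows its difference between the groups in these distances. The place of *si:rp71-1d10.6* without that added value was not tested. For *brf2*, *ice1* (0.377), *si:rp71-1d10.6* (0.383) and *snapc4* (0.444) were among the 4 closest. These distances rest mainly on the difference between the groups and describe 6 libraries.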

How the data were processed

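The members and all gene lists were chosen with earlier results of these data known. The authors aligned reads to GRCz11 with HISAT2 2.0.4. The deposited counts are raw whole-number counts for each gene. The methods name featureCounts and HTSeq-count in intersection-strict mode, and the submitters' processing notes list HTSeq 0.9.1. The annotation and strand setting are not given in the sources used here. The authors' FPKM values follow from these counts, the library total and a single gene length (largest relative deviation 2.18e-08 over 20638 genes).

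Low counts were removed with filterByExpr, libraries were scaled by TMM, and genes were fitted with edgeR 4.0.16 (R 4.3.3) without covariates, with Benjamini-Hochberg adjustment over 24277 genes. Standard errors are the log2 fold change over the square root of F. The alternatives were DESeq2 1.42.0, RLE factors, library sizes alone, leaving genes unfiltered, a minimum of 10 counts in each of the libraries, a replicate block, limma 3.58.1 on log2(FPKM + 1) and log2(FPKM + 0.1) of genes with 0.5 FPKM in 3 libraries, and each library left out. The fits were tested on simulated counts drawn with a single dispersion, without pairing of libraries or a library like mutant 1. That test says nothing about those features.

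Sibling and mutant labels share replicate numbers. Deviations from the group means correlated at 0.407, 0.378 and 0.521 between libraries of the same number and at −0.337 to −0.0872 otherwise (19334 genes). Each group was centred on its own mean, so positive values at the same number force negative ones elsewhere. The negative values therefore add no evidence. By the values at the same number, libraries of one number seem to share something that the labels do not name. The main edgeR fit, its calls and the shares of all genes called make no use of this, and neither do the permutation tests. With the replicate block, 1479 genes were called higher and 1605 lower, against 961 and 929 in the main fit. Where nothing says that pools came from separate clutches, p values measure the spread between these pools. Small RNA rows were summed by symbol, with 0.5 counts added before taking logs, and compared by exact permutation.

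The genes named are all members, *prpf31*, the 2 highest and the 2 lowest log2 fold changes among the called genes of each list, the 3 genes most like *snapc4* and *brf2* (1 of them is not reported here), and, chosen after the values were seen, their matched neighbours, *tbp*, *brf1a*, *polr3f*, *ell2*, *ice2*, *gtf2a1*, *gtf2e2*, the 4 markers called with the block and the 5S rRNA rows. Also named after their values were seen were *rx1*, the PAX6 rows and SIX3 row ENSDARG00000054879. A name without its paralog letter can stand for either copy. The list symbols *gtf3c1*, *zc3h8* and *hexim1* were not matched. Sequences were not used here.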

Additional observations from a re-analysis of the deposited data

How the results depend on the processing

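*Snapc4* and *brf2* were the 2 members called higher in all 14 alternatives, with log2 fold changes of 2.88 to 3.57 and 2.61 to 3.38; the lowest values came from log2(FPKM + 1). Members called lower were 0 with library sizes alone, log2(FPKM + 1) or log2(FPKM + 0.1), and 0 to 2 with a library left out. Without a filter on low counts 1 was called lower, ZNF143 row 1. The replicate block changed the calls of *tbp*, *polr3f*, *gtf2a1*, *card9*, *entr1* and 4 head and blood cell markers, and of no other gene named. Pathway genes called lower were 0 to 6 with a library left out (4 with all), and those called higher 6 to 12 over all alternatives. The calls of *polr3e*, *ell* and BRF1 were also lost with library sizes alone and both FPKM settings (edgeR or limma adjusted p = 0.0736 to 0.226). That of *gtf3c4* was lost with RLE factors (edgeR adjusted p = 0.0527) and without the filter on low counts. Over all genes, 1890 were called (961 higher, 929 lower), against 919 with library sizes alone, 3546 with DESeq2, 3084 with the replicate block, 1162 (438 higher, 724 lower) with log2(FPKM + 1), 1036 (418 higher, 618 lower) with log2(FPKM + 0.1), and 359 to 4069 with a library left out. The median of all genes, 0.019, was −0.11 with library sizes alone and −0.13 to −0.095 with FPKM. *Snapc5*, at −0.55 in the main fit, was at −0.67 with library sizes alone. It was at −0.64 with log2(FPKM + 1) and −0.68 with log2(FPKM + 0.1). ZNF143 row 1, at −0.56 in the main fit, was at −0.68, −0.63 and −0.69 in these 3 settings. For *prpf31*, the log2 fold change was −0.74 with library sizes alone (adjusted p = 0.0617), −0.76 with log2(FPKM + 0.1) (adjusted p = 0.0549), and −0.70 to −0.56 with a library left out. Genes near 0 changed sign. *Anxa4* ran from −0.34 to 0.022 (without mutant 3) with a library left out, and *rab11fip1b* from −0.022 (without mutant 1) to 0.29, and *gpat4* was −0.015 with log2(FPKM + 1) and −0.017 with log2(FPKM + 0.1). *Snapc1b* and *snapc2*, neither of them called, also took either sign, from −0.070 to 0.17 and from −0.22 to 0.17. U1, U2, U4, U6, the minor spliceosome snRNAs and the other polymerase III RNAs kept their direction with library sizes alone and with each library left out; U5 and 5S rRNA were not run under these. *Snapc1a* and the snRNA rows held few counts, and *snapc1a* had no value with at least 10 counts per library or with limma. Why the results differed between settings was not tested.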

Other observations

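Rows named 5S rRNA, whose genes are transcribed by RNA polymerase III with TFIIIA and TFIIIC and without SNAPc, were summed after the other small RNAs had been seen. The 1947 rows, of which 773 had counts, held 1577, 2307 and 2527 counts in mutants, against 1337, 1332 and 1538 counts in siblings. After scaling they were at 33.4 ± 3.83 CPM in mutants and 21.6 ± 1.08 CPM in siblings (SD, n = 3 each), without overlap. The 2-sided exact permutation test gave p = 0.1, the smallest that 3 against 3 libraries allow when pairing is not used. The copies are near-identical and poly(A) selection does not select them, so these counts describe the libraries.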
